A study of Mus musculus with 20 samples.

Results

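The 10 heat shock and chaperone genes described here were Hspa1a, Hspa1b, Dnajb1, Hsph1, Hsp90aa1, Hspb1, Hspa8, Hsp90ab1, Hspa5 and Hspe1, taken by Ensembl identifier from 37620 genes listed. They were set as a list of names, with no threshold on a measured value, and were divided into 6 inducible genes (Hspa1a, Hspa1b, Dnajb1, Hsph1, Hsp90aa1 and Hspb1) and 4 constitutive genes (Hspa8, Hsp90ab1, Hspa5 and Hspe1). Every library had a value for each of the 10, and all 10 were among the 16304 genes tested between spinal levels. Trpv1 neurons were sorted from lumbar (L4-5) and sacral (L6-S1) dorsal root ganglia (DRG) of male and female mice aged 6 to 8 weeks. All mice were homozygous for Trpv1tm2Bbm, an allele that places a β-galactosidase reporter under control of the Trpv1 gene, and the labels name no treatment. The 4 groups were male lumbar, male sacral, female lumbar and female sacral, with 5 libraries each, and the lumbar and sacral libraries of a donor were paired by the animal numbers in their labels (donors M1 to M5 and F1 to F5). Each donor label carries 2 animal numbers, so a donor may be more than a single mouse. The sort selected cells by reporter activity after ganglia had been digested with warm enzymes, so cells of all 4 groups went through the same dissociation before RNA was taken.

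Chaperones bind unfolded or partly folded proteins and help them fold, assemble or be degraded. Constitutive members such as Hspa8 and Hsp90ab1 work in unstressed cells, whereas Hspa1a, Hspa1b and Dnajb1 are switched on within minutes when heat, proteotoxic stress or tissue handling activates heat shock factor 1 (HSF1), the transcription factor that binds repeats of the letters nGAAn. Sensory neurons are known for a high basal content of Hspb1 (Hsp27), and the folding of endoplasmic reticulum (ER) and mitochondrial proteins depends on Hspa5 (BiP) and on Hspe1 (Hsp10), respectively.

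The depth was 43499216 to 65542378 reads per library, worked back from the deposited values, with overlapping ranges at the lumbar and sacral levels. All 10 nociceptor markers and all 8 pan-neuronal markers had a value in every library. So did the 13 of 14 glial markers that could be matched, and their summed level of 1273 to 4065 RPKM (reads per kilobase of exon, scaled to library size) was comparable to the 1617 to 2697 RPKM of the nociceptor markers. The glial markers were higher in the lumbar library of 10 of 10 donors by a mean log2 difference of 0.93 ± 0.25 (SD), and 12 of 13 were called. Pan-neuronal markers were higher in the sacral library of 10 of 10 donors, with a mean log2 difference of -0.57 ± 0.23 (SD) for lumbar minus sacral. The mean log2 levels of endothelial and mural, fibroblast and erythroid markers were also higher in lumbar in 10 of 10 donors. Their mean log2 differences were 0.84 ± 0.32, 0.74 ± 0.45 and 1.32 ± 0.79 (SD). Macrophage markers were higher in lumbar in 8 of 10 donors, by 0.74 ± 0.71. Summed levels of endothelial and mural markers were 94.9 to 187 RPKM in lumbar and 99.7 to 197 in sacral libraries. Those of fibroblast markers were 72.0 to 325 and 78.3 to 179. Over both levels, erythroid and neutrophil markers summed to 0.63 to 38.8 RPKM and macrophage markers to 2.43 to 16.9. Rgs5, the most abundant endothelial and mural marker, was called higher in sacral (-0.37, adjusted p = 0.0147 in limma), against 7 called towards lumbar. Dcn, the most abundant fibroblast marker, was not called (-0.35), against 4 called towards lumbar. The erythroid mean rests on Hbb-b1, Hba-a1 and Alas2, each called higher in lumbar. They are the 3 of 7 erythroid and neutrophil markers with a value in every library. The neutrophil markers S100a8 (-2.09), S100a9 (-2.23) and Ngp (-4.20) were called higher in sacral, with values in 13, 12 and 11 libraries. Camp was not called. The macrophage mean rests on 4 of 8 markers. These shifts accompany every difference between levels given for the chaperone genes. In what follows, lumbar and sacral neurons stand for the sorted libraries of a level, including any RNA of other cells.

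Promoter sequence was available for 7 of the 10 genes in a RefSeq table of the GRCm38.p6 build that covers 250 bases before to 50 after each start site. The stretches shown are those that hold a match to the HSF1 recognition letters or to the ER stress element. They are written 5′ to 3′ on the strand of the gene, with the motif letters that matched in capitals. The Hspa1a stretch lies at chr17:34972227-34972286 on the minus strand, 130 to 71 bases before the start, and the same 60 letters stand before Hspa1b at chr17:34959309-34959368. The Hspb1 stretch lies at chr5:135887789-135887848 (plus strand), that of Hsph1 at chr5:149636337-149636396 (minus strand), that of Hspe1 at chr1:55088038-55088097 (plus strand) and that of Hspa5 at chr2:34772000-34772059 (plus strand).
Hspa1a and Hspa1b: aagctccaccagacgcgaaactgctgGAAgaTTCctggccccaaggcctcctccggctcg
Hspb1: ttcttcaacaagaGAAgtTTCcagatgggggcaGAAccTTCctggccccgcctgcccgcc
Hsph1: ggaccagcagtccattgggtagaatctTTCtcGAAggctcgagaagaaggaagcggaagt
Hspe1: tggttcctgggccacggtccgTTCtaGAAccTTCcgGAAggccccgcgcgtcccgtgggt
Hspa5: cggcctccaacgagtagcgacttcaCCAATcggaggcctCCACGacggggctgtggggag

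The letters searched on both strands were GAANNTTC and TTCNNGAA for pairs of inverted HSF1 units, both pairs overlapping in the middle unit for 3 units in a row, and CCAAT followed after 9 bases by CCACG for the ER stress element. Pairs of units were held by 15.1% of the 32851 promoters in the table and 3 units by 0.603%. The ER stress element was held by 0.119%. Hspa1a and Hspa1b had a single GAANNTTC beginning 104 bases before the start, and Hspb1 had a copy at 117 and another at 97 bases before it. In Hspe1, which is counted as constitutive here, overlapping 3-unit matches began 89 bases before the start. Hsph1 held a pair of units 33 bases before its first listed start site, as shown, and 3 units in a row at 36 to 48 bases after it, outside the stretch shown. Only Hspa5 among the 7 genes held the ER stress element, beginning 65 bases before its start. Neither of the start sites listed for Dnajb1 had a match to any of these letters, and Hsp90aa1, Hspa8 and Hsp90ab1 were not among the promoters matched. A match is a description of the sequence and not evidence of binding.

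Across all 20 libraries the level of expression ran from Hsp90ab1 (mean log2 RPKM 9.68 ± 0.35, SD, n = 20) to Hspe1 (3.85 ± 0.43). Hsp90ab1, the constitutive cytosolic Hsp90, was higher than 99.9% of the genes kept, and Dnajb1, the Hsp40 partner that delivers clients to Hsp70, was second at 7.93 ± 0.48. Next came Hspa8 (6.81 ± 0.19), the constitutive Hsp70, Hspa5 (6.69 ± 0.26), the Hsp70 of the ER, and Hsp90aa1 (6.64 ± 0.34), the inducible Hsp90. Neighbours among these 3 did not differ by more than 1 SD of the difference within libraries. Hsph1 (5.84 ± 0.32), an Hsp110 that exchanges nucleotide on Hsp70, was below Hsp90aa1 in all 20 libraries. Below it, Hspa1a (5.31 ± 0.84), Hspb1 (4.79 ± 0.27), Hspa1b (4.07 ± 0.87) and Hspe1 did not differ from the next gene in the order beyond that spread. Thus inducible and constitutive genes were interleaved by level, and the inducible Hsp70 genes were higher than 94.8% (Hspa1a) and 86.0% (Hspa1b) of the genes kept.

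Levels between these genes also carry the effect of counting uniquely mapping reads. In the mm9 (NCBIM37) genome, 39.0% of 50-base windows of Hspa1a exon and 37.7% of those of Hspa1b occur once, because the coding sequences of the pair are 99.4% identical. For Hsp90aa1, Hspb1 and Hspa8, some of whose windows recur elsewhere in the genome, the shares were 43.8%, 44.4% and 62.7%, and for the other 5 genes at least 83.0%. Dividing by unique windows instead of exon length would place Hsp90aa1 at 7.83, Hspa8 at 7.48, Hspa1a at 6.67 and Hspa1b at 5.47 log2 RPKM. Hsp90ab1 (9.79) and Dnajb1 (7.94) would still be the highest, and Hspe1 (4.12) the lowest.

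**Figure D1:**
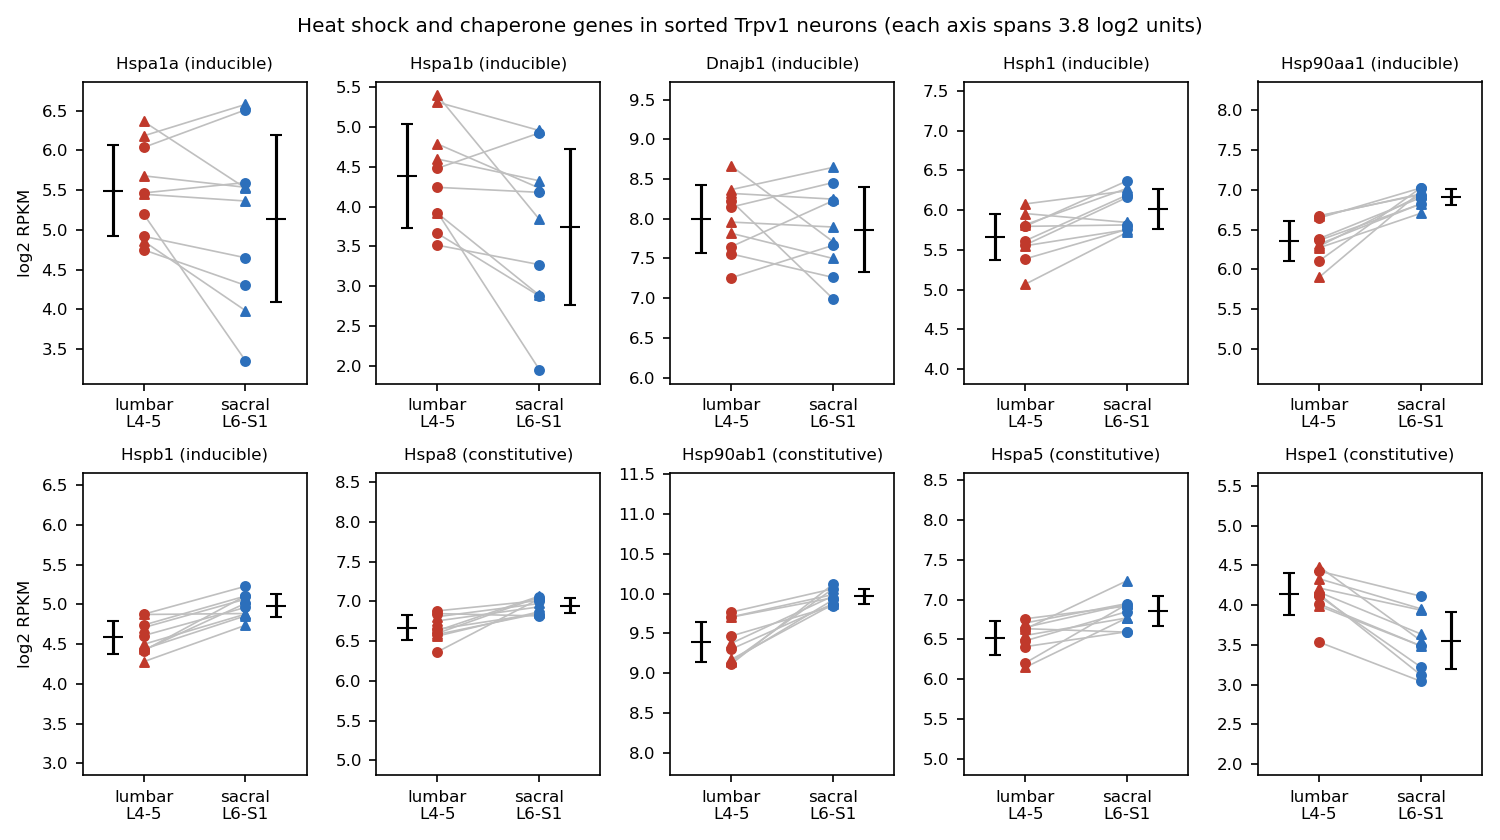
Level of each of the 10 genes in log2 RPKM (vertical axis, 3.8 log2 units in every panel) in lumbar and sacral libraries. Circles are female and triangles male libraries, grey lines join the libraries of a donor, and black bars give the mean and SD of 10 libraries. All lines of Hsp90aa1, Hsp90ab1 and Hspb1 rise from lumbar to sacral, all lines of Hspe1 fall, and the libraries of Hspa1a and Hspa1b spread more widely than the means differ.

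The first question was whether these genes differed between lumbar and sacral Trpv1 neurons. Of the 10 genes, 7 were called at an adjusted p of at most 0.05 in limma, 6 of them higher in sacral and 1 higher in lumbar neurons, beside 45.6% of all genes tested. Calls towards sacral made up 30.3% of all genes tested and calls towards lumbar 15.3%. The median log2 fold change (lumbar minus sacral) of the 10 genes was -0.31, beside -0.11 over all genes tested. With quantile normalization this gap was lost, as the 2 medians were -0.047 and -0.054. It was kept with TMM voom (-0.21 and -0.01) and with median centring (-0.23 and -0.031). With reads scaled to library totals the medians were -0.641 and -0.435. In RNA from sorted pools, fewer cells of a type and less RNA per cell cannot be told apart.

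Both cytosolic Hsp90 genes were higher in sacral neurons, and their lumbar and sacral values did not overlap, which held for 1.71% of 15318 genes with a value in every library. Hsp90ab1 (ENSMUSG00000023944, chr17:45704724-45710220, minus strand, mm9) lay at 9.12 to 9.77 log2 RPKM in lumbar libraries, with a median of 9.34, and at 9.84 to 10.12 in sacral libraries, with a median of 9.96. Sacral libraries were 1.49-fold higher, a log2 fold change of -0.57 ± 0.09 (SE; adjusted p = 3.9e-05). The donor differences ran from -0.24 in F2 to -1.01 in F3. Hsp90aa1 (ENSMUSG00000021270, chr12:111928815-111940938, minus strand) lay at 5.90 to 6.68 in lumbar libraries, median 6.34, and at 6.71 to 7.03 in sacral libraries, median 6.94. It was 1.46-fold higher in sacral neurons, at -0.55 ± 0.08 (SE; adjusted p = 2.55e-05), and higher in the sacral library of 10 of 10 donors. In both genes the sacral libraries were also closer to each other than the lumbar ones, with an SD of 0.09 against 0.26 for Hsp90ab1 and of 0.10 against 0.25 for Hsp90aa1.

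Among the Hsp70 genes, Hspa8 and Hspa5 were also higher in sacral neurons, by smaller steps. Hspa8 (ENSMUSG00000015656, chr9:40609067-40613283, plus strand), which hosts the small nucleolar RNAs Snord14c, Snord14d and Snord14e, had lumbar values of 6.37 to 6.88, median 6.64, and sacral values of 6.82 to 7.07, median 6.95. The ranges overlapped slightly, and the log2 fold change was -0.28 ± 0.07 (SE; adjusted p = 0.0017), with 9 of 10 donors higher in sacral. Hspa5 (ENSMUSG00000026864, chr2:34627490-34632051, plus strand) ran from 6.15 to 6.76 in lumbar libraries, median 6.59, and from 6.59 to 7.24 in sacral libraries, median 6.89. Its log2 fold change was -0.34 ± 0.08 (SE; adjusted p = 0.0022), again with 9 of 10 donors higher in sacral. Quantile normalization ended both calls, at -0.009 for Hspa8 and -0.09 for Hspa5, and so did females alone, at -0.28 for both.

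Hsph1 and Hspb1 followed the same direction. Hsph1 (ENSMUSG00000029657, chr5:150416862-150438951, minus strand) had lumbar values of 5.07 to 6.08, median 5.71, and sacral values of 5.72 to 6.37, median 6.00. Its ranges overlapped widely, 9 of 10 donors were higher in sacral, and the log2 fold change was -0.35 ± 0.11 (SE; adjusted p = 0.0108). The call was lost with quantile normalization (-0.13) and in males alone (-0.27). Hspb1 (ENSMUSG00000004951, chr5:136363789-136365433, plus strand), a small heat shock protein that holds unfolded proteins and stabilizes actin, lay at 4.28 to 4.88 in lumbar libraries, median 4.55, and at 4.74 to 5.23 in sacral libraries, median 4.99. It was higher in the sacral library of 10 of 10 donors, by -0.40 ± 0.07 on the log2 scale (SE; adjusted p = 0.000185), although in M1 the difference was only -0.01.

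Hspe1, the co-chaperonin that caps the mitochondrial Hsp60 ring, was the only one of the 10 called in the other direction. Hspe1 (ENSMUSG00000073676, chr1:55144976-55148151, plus strand) had lumbar values of 3.53 to 4.48, median 4.15, and sacral values of 3.04 to 4.11, median 3.52. Lumbar libraries were 1.50-fold higher, a log2 fold change of 0.59 ± 0.11 (SE; adjusted p = 0.000314). The lumbar library was higher in 10 of 10 donors, by 0.28 in M1 to 1.02 in F1, and the same direction in all donors was found for 21.2% of 15318 genes. Its counts were modest, at 713 to 1476 reads per library. Its annotated span overlaps that of Hspd1, which lies head to head with it on the opposite strand and encodes Hsp60, the ring itself. Hspd1, looked at after its neighbour's values were seen, went the other way, at -0.38 ± 0.08 (SE; adjusted p = 0.000901), with 9 of 10 donors higher in sacral. The log2 ratio of Hspd1 to Hspe1 was therefore 0.65 ± 0.35 (SD, n = 10) in lumbar and 1.62 ± 0.32 in sacral libraries, and was higher in sacral libraries of all 10 donors. The 1519 other genes within 20% of the exonic length of Hspe1 (1474 bases) had a median log2 fold change of -0.10, beside -0.19 for the 2106 genes as close to the length of Hsph1 (7042 bases). As counting is not stated to use strand, reads from the overlap of the pair cannot be told apart.

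Hspa1a, Hspa1b and Dnajb1, which are among the HSF1 targets of the 10, were not called. Hspa1b (ENSMUSG00000090877, chr17:35093381-35096183, minus strand) spanned 3.52 to 5.40 in lumbar libraries, median 4.36, and 1.95 to 4.96 in sacral libraries, median 4.01. The lumbar library was the higher in 9 of 10 donors, all but F3, and the log2 fold change was 0.64 ± 0.27 (SE, 95% interval 0.08 to 1.20, adjusted p = 0.0577). Leaving out donor F3 brought it past the threshold (0.76, adjusted p = 0.0202), as did 5 other settings. For Hspa1a (ENSMUSG00000091971, chr17:35106144-35109069, minus strand) the lumbar range was 4.75 to 6.36, median 5.46, and the sacral range 3.35 to 6.58, median 5.44. Here 7 of 10 donors were higher in lumbar, at 0.35 ± 0.29 (SE, 95% interval -0.26 to 0.96, adjusted p = 0.341). Dnajb1 (ENSMUSG00000005483, chr8:86132074-86135801, plus strand) spanned 7.26 to 8.66 in lumbar libraries, median 8.05, and 6.99 to 8.65 in sacral libraries, median 7.80. Its log2 fold change was 0.14 ± 0.17 (SE, 95% interval -0.22 to 0.49, adjusted p = 0.541), with 6 of 10 donors higher in lumbar, and it turned to -0.01 without donor F2 and to -0.20 when reads were scaled to library totals.

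**Figure D2:**
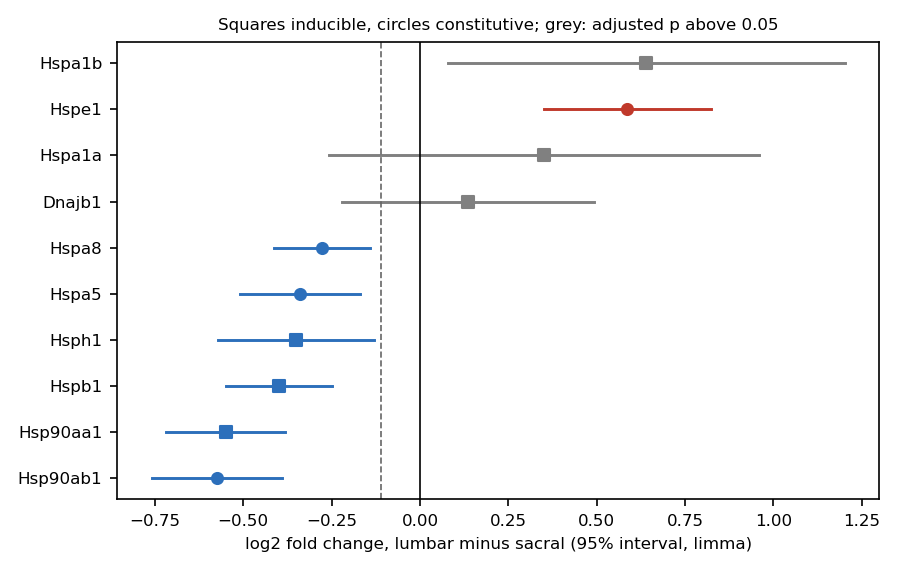
Log2 fold change of each gene (horizontal axis, lumbar minus sacral, limma, with the 95% interval), with squares for inducible and circles for constitutive genes. Blue genes were called higher in sacral, red higher in lumbar and grey were not called, and the dashed line marks the median of all genes tested (-0.11). The 6 blue genes lie between -0.57 and -0.28, and Hspa1a, Hspa1b and Dnajb1 have the widest intervals.

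Grouped by class, 3 of 6 inducible genes (Hsp90aa1, Hspb1 and Hsph1) and 3 of 4 constitutive genes (Hsp90ab1, Hspa5 and Hspa8) were called higher in sacral neurons, and 1 constitutive gene (Hspe1) higher in lumbar. Among all genes tested the shares were 30.3% towards sacral and 15.3% towards lumbar. The 3 of 6 inducible genes called are thus close to the 45.6% of all genes called in either direction. With 6 and 4 genes, the classes were not tested against these shares. The mean log2 RPKM of the inducible genes was 5.75 ± 0.31 (SD, n = 10) in lumbar and 5.78 ± 0.46 in sacral libraries, and that of the constitutive genes was 6.68 ± 0.14 and 6.83 ± 0.14. Inducible minus constitutive came to -0.93 ± 0.32 in lumbar and -1.05 ± 0.37 in sacral libraries. Per donor the difference between levels was 0.12 ± 0.33 (SD), higher in lumbar for 5 donors and in sacral for 5. That balance depends on which genes stand for a class. With Hspa1a, Hspa1b, Dnajb1 and Hsph1 set against Hspa8 and Hsp90ab1 alone, the difference was 0.62 ± 0.52 (SD) towards lumbar.

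The level differences were also set relative to the marker genes of the same library, a description added after the values were seen. Minus the pan-neuronal mean, Hsp90ab1 differed between levels by -0.005 ± 0.13 (log2, SD over 10 donors) and Hsp90aa1 by 0.02 ± 0.17, so the difference in both Hsp90 genes was about as large as that of the neuronal markers. On the same scale 4 genes called higher in sacral had mean differences towards lumbar: Hspa8 by 0.29 ± 0.21, in 10 of 10 donors, and Hspa5 (0.23 ± 0.17), Hsph1 (0.22 ± 0.31) and Hspb1 (0.17 ± 0.25), in 8 of 10 each. Hspe1 was higher in lumbar by 1.16 ± 0.36, also in 10 of 10. Hspa1a and Hspa1b were higher in lumbar by 0.92 ± 0.70 and 1.21 ± 0.75, each in 10 of 10 donors. Minus the glial mean, in contrast, every one of the 10 genes had a mean difference towards sacral, from -0.29 ± 0.68 for Hspa1b to -1.51 ± 0.42 for Hsp90ab1. With the glial mean as a covariate in limma, 1 of the 10 genes was called (Hspa1a, -1.36, adjusted p = 0.0415), and of all genes tested 193 were. The glial mean and the spinal level moved together in every donor, so their parts cannot be told apart here.

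Sex was compared at each level, since the study asked whether male and female neurons differed. No gene of the 10 was called between females and males at the sacral level (lowest adjusted p = 0.6583 in limma, beside 0.0368% of all genes called) or at the lumbar level (lowest adjusted p = 0.4534, beside 0.0427%), and none had an unadjusted p under 0.05. The largest difference was that of Hspa1b at the lumbar level, where the mean log2 RPKM was 3.97 in females and 4.80 in males, a difference of -0.84 ± 0.42 (SE, 95% interval -1.71 to 0.03). Hspa8 was the closest, at 6.67 in both sexes with an interval of -0.21 to 0.21. The difference between levels did not pass the test for depending on sex in any of the 10 genes (lowest adjusted p = 0.9996, beside 0.0% of all genes called, and 0 of the 10 at an unadjusted p under 0.05), with intervals 0.54 to 2.43 log2 units wide.

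Hspa1a, Hspa1b and Dnajb1 had the largest spread of the 10 genes between libraries of the same group. The within-group SD was 0.86 log2 units for Hspa1a, 0.78 for Hspa1b and 0.47 for Dnajb1, larger than in 99.7%, 99.3% and 98.7% of genes of like level (within 0.5 log2 units), whose medians were 0.22, 0.23 and 0.25. Hspe1 and Hsph1 had SDs of 0.31 and 0.29. For the other 5 genes the SD was 0.14 to 0.20, and for Hspa8 (0.14) only 5.6% of genes of like level had a smaller SD. From the lowest to the highest library, Hspa1b differed 10.9-fold, Hspa1a 9.34-fold and Dnajb1 3.19-fold, whereas Hspa8 differed 1.63-fold.

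Library by library, Hspa1a in male lumbar neurons was at 5.68 (M1), 6.36 (M2), 5.45 (M3), 6.18 (M4) and 4.86 (M5) log2 RPKM. In male sacral neurons it was at 5.54, 5.53, 5.36, 6.58 and 3.98 for the same donors. Both M5 libraries were the lowest of their group. Female lumbar neurons had 4.75 (F1), 5.20 (F2), 6.04 (F3), 5.46 (F4) and 4.92 (F5), and female sacral neurons 4.30, 3.35, 6.51, 5.59 and 4.65. Both F3 libraries were the highest of their group, while F2 fell from the middle of the lumbar values to the lowest sacral value, at 1759 reads. The deviations of a donor's lumbar and sacral libraries from their group means had r = 0.78 (exact permutation within sex, two-sided p = 0.0128) and rho = 0.81 (p = 0.0111) over 10 donors. Within sexes r was 0.83 in males and 0.77 in females. Without F3 and M5, whose lumbar deviations lay farthest from the median deviation, r was 0.55. This relation was 1 of 15318 computed, with 1177 genes at an unadjusted p under 0.05. After adjustment over them neither Hspa1a (exact permutation, adjusted p = 0.5348) nor any other gene passed. The 14400 permutations allow no p below 6.94e-05, so no gene could pass this adjustment on its own. Over the 10 genes r ran from -0.21 for Hspa8 to 0.78 for Hspa1a, with Hspa1b at 0.65 (exact permutation p = 0.0397). Dnajb1 (r = 0.14, exact permutation p = 0.7161; rho = 0.07) did not pass at any stage.

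**Figure D3:**
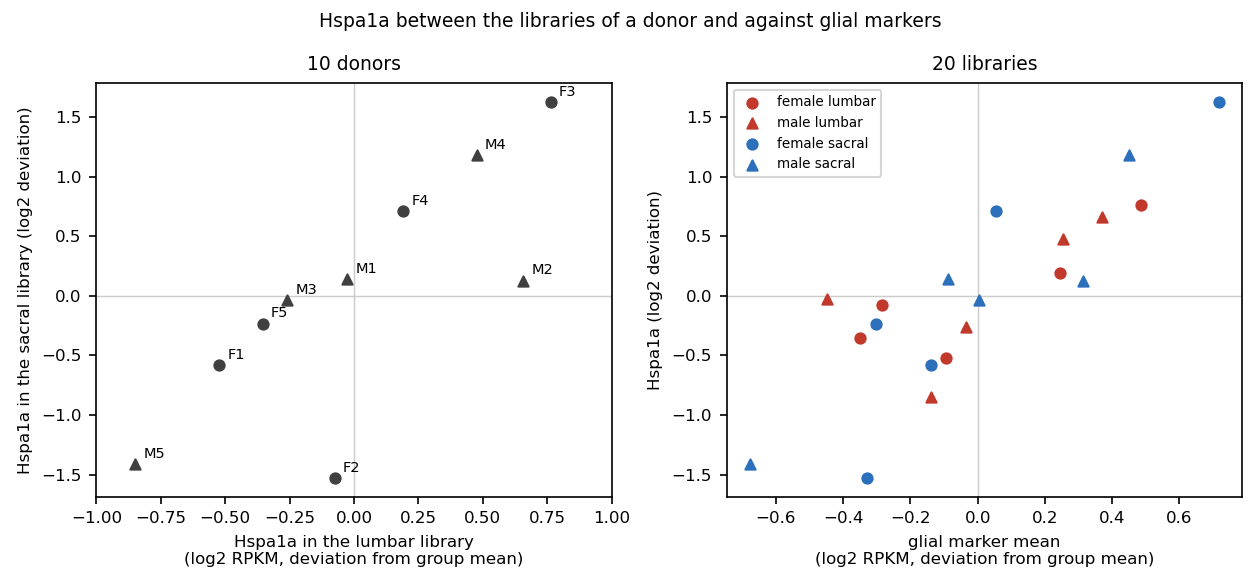
Left, Hspa1a in the lumbar library (horizontal axis) against the sacral library (vertical axis) of each of 10 donors, as log2 deviations from the group mean. Right, Hspa1a (vertical axis) against the mean of 13 glial markers (horizontal axis) in 20 libraries, on the same scale, with circles for female and triangles for male libraries. M5 is low and F3 high at both levels, F2 is low in the sacral library alone, and Hspa1a was higher where glial markers were higher (r = 0.84).

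Beyond sex and level, Hspa1a, Hspa1b, Dnajb1 and Hsph1 moved together from library to library. Pearson r of their deviations from the 4 group means over 20 libraries was 0.98 for Hspa1a with Hspa1b, 0.89 for Hspa1a with Dnajb1 and 0.81 for Dnajb1 with Hsph1. These are descriptions, since the libraries come in donor pairs and the genes were grouped after their correlations were seen. The Hspa1 pair shares most of its sequence, and 59.4% of the windows of Hspa1a exon occur in Hspa1b. The part of that shared sequence in the correlation was not tested. Hsp90aa1 and Hsp90ab1 also moved together (r = 0.83), as did Hspa8 with Hsp90ab1 (0.70) and Hspa5 with Hsp90aa1 (0.66). For Hspa1a, Hspa1b and Dnajb1 the relation to these genes and Hspb1 was weak, with a median r of 0.14 (range -0.11 to 0.35) over the 15 pairs. Hsph1 lay between the sets, with r of 0.25 to 0.44 with the same 5 genes. Hspb1 was tied closely to neither, at 0.35 with Hspa1a and 0.13 to 0.34 with the other 4. Constitutive Hspe1 deviated with Hspa1b (0.54), Hspa1a (0.51) and Dnajb1 (0.44) and against Hsp90aa1 (-0.23), while inducible Hsp90aa1 deviated with the constitutive Hsp90ab1, Hspa5 and Hspa8 (0.52 to 0.83).

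Other measures moved with each set. Hspa1a deviated with the glial mean (r = 0.84), with the mean of 17 immediate early genes (0.67) and with the log2 number of reads of the library (0.56), and against the pan-neuronal mean (-0.54). Hsph1 deviated most with the number of reads (0.73). For Hsp90aa1 and Hsp90ab1 the order was opposite, with r of 0.80 and 0.69 with the nociceptor mean, 0.71 and 0.70 with the pan-neuronal mean, and -0.47 and -0.46 with the glial mean. The part of glial RNA, of depth and of the early response in the spread of the chaperone genes was not tested.

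**Figure D4:**
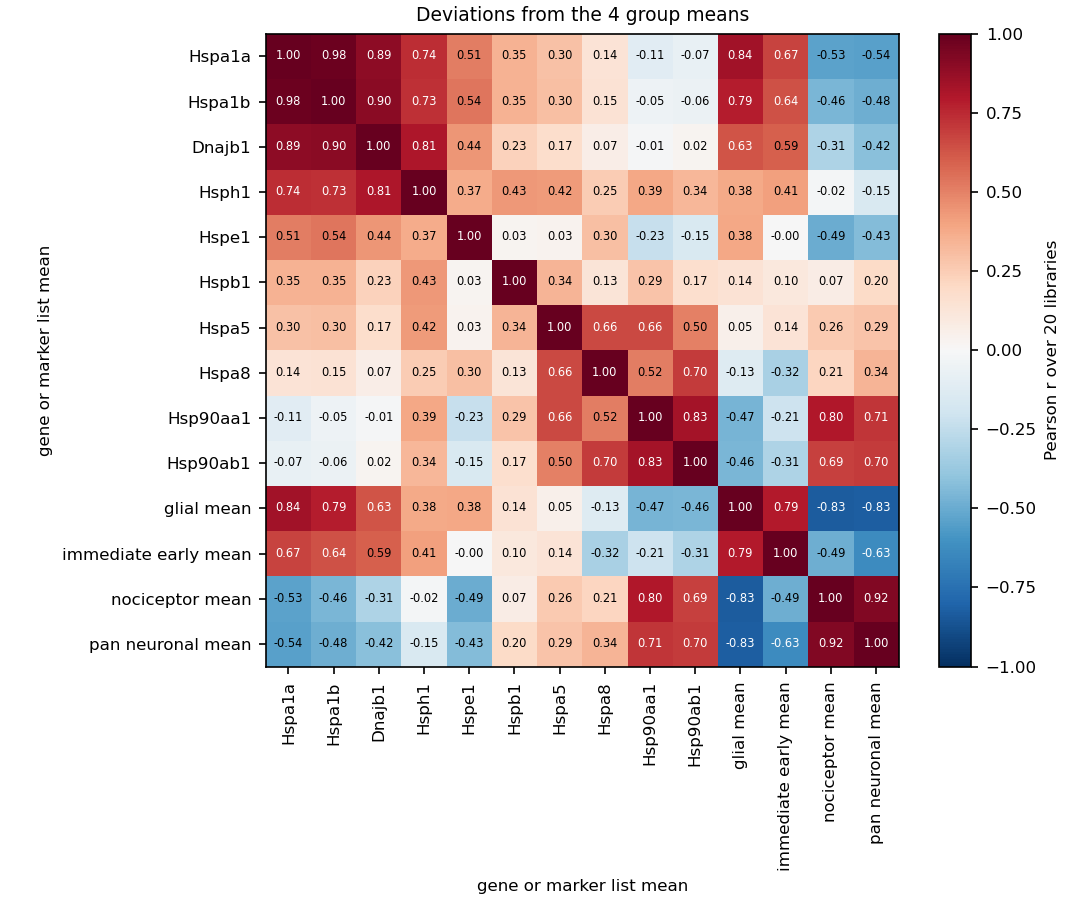
Pearson r between log2 deviations from the 4 group means over 20 libraries, for the 10 genes and the means of 4 marker lists (both axes), with red for positive and blue for negative r. Hspa1a, Hspa1b, Dnajb1 and Hsph1 form a red block with r of 0.73 to 0.98, and Hsp90aa1 and Hsp90ab1 go with the neuronal lists (0.69 to 0.80).

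Within a library, Hspa1a exceeded Hspa1b by 1.25 ± 0.27 log2 units (SD, n = 20), and by 0.85 to 1.68 across libraries, so the pair kept its order in all of them. The excess was larger in the sacral library in 9 of 10 donors, by a mean of 0.29 ± 0.27 (SD; means 1.39 in sacral and 1.11 in lumbar). Hspa1a overlaps Gm20481, annotated on the opposite strand, and reads from the overlap cannot be told apart without strand.

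The genes most like the mean of the 6 inducible genes, among 7479 other genes with a mean log2 RPKM above 2, were Gm20481 (r = 0.96 over 20 libraries), Wwtr1 (0.85), Syn3 (0.85), Atf1 (0.84), Ptpn12 (0.83) and Ifrd1 (0.83). The first of these is the gene that overlaps Hspa1a. Of the 6, Wwtr1, which encodes the transcriptional coactivator TAZ, was higher in lumbar neurons (0.74 ± 0.17, SE, adjusted p = 0.0013), as were Syn3 (0.64 ± 0.15, adjusted p = 0.0014) and Ifrd1 (0.49 ± 0.19, adjusted p = 0.0375). The genes most like the constitutive mean were Chordc1 (r = 0.93), Ssb (0.89), Stmn1 (0.88), Dnajc8 (0.87), Ywhaq (0.87) and Mesdc2 (0.87). Chordc1 is an Hsp90-binding cochaperone, Dnajc8 an Hsp40 protein and Mesdc2 a chaperone of lipoprotein receptors. Stmn1, a microtubule regulator of growing axons, was the only one of these 6 called, higher in sacral neurons (-0.45 ± 0.08, SE, adjusted p = 0.000186).

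The rest of the chaperone system went mostly in the direction of the Hsp90 genes. Of 103 other chaperone and heat shock genes tested (111 listed), 60 were called higher in sacral and 5 higher in lumbar neurons, with a median log2 fold change of -0.28, beside -0.11 over all genes tested and the 45.6% called. With quantile normalization the counts were 38 towards sacral and 8 towards lumbar. In females alone they were 18 and 3, and with the glial mean as a covariate 0 and 0. With median centring 10 were called towards lumbar and fewer than 60 towards sacral. When reads were scaled to library totals, more than 60 were called towards sacral and fewer than 5 towards lumbar. All 9 chaperonin genes had negative fold changes and 8 were called higher in sacral, among them Cct8, a subunit of the TRiC ring (-0.55 ± 0.09, SE, adjusted p = 6.92e-05). Of 10 nucleotide exchange and Bag genes 9 were called higher in sacral, with Bag3, an HSF1 target that links Hsp70 to autophagy, at -0.66 ± 0.10 (SE, adjusted p = 2.46e-05) in 10 of 10 donors. Of 20 genes of the Hsp90 list, which holds cochaperones and the organelle Hsp90 genes Hsp90b1 and Trap1, 15 were, led by Fkbp5, which holds steroid receptors in an inactive state (-0.89 ± 0.13, SE, adjusted p = 2.91e-05). Among 9 other Hsp70 and Hsp110 genes 7 were, with the largest change in Hspa12b (-0.63 ± 0.13, SE, adjusted p = 0.000454).

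The remaining families were mixed. The share called in either direction was above the 45.6% of all genes tested in the Hsp40 family. It was below that share in the ER, mitochondrial and small heat shock families. Calls towards sacral made up 30.3% of all genes tested, and calls towards lumbar 15.3%. In the Hsp40 family 12 of 21 were called higher in sacral, with Dnajc6 (auxilin, which uncoats clathrin vesicles in neurons) at -0.73 ± 0.10 (SE, adjusted p = 1.54e-05), and 2 higher in lumbar, with Dnajc1 at 0.63 ± 0.13 (SE, adjusted p = 0.000468). Of 23 ER chaperone and unfolded protein response genes, 8 were higher in sacral, led by Hyou1, which the Hsp70 list also holds (-0.48 ± 0.10, SE, adjusted p = 0.000546), and 1 was higher in lumbar. That gene was Serpinh1, the collagen chaperone of matrix-producing cells (1.004 ± 0.18, SE, adjusted p = 0.000132). Mitochondrial import and folding genes gave 2 calls of 7, with Tomm70a at -0.53 ± 0.10 (SE, adjusted p = 0.000157). Of 5 small heat shock genes tested beside Hspb1, Hspb8 was higher in sacral (-0.42 ± 0.09, SE, adjusted p = 0.0011). Cryab, which is also abundant in glia, was higher in lumbar (0.86 ± 0.16, SE, adjusted p = 0.000278), and the other 3 were not called.

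The heat shock factors themselves were low to moderate. Hsf1 was at 3.56 ± 0.23 log2 RPKM in lumbar and 3.66 ± 0.29 in sacral libraries (SD, n = 10), a log2 fold change of -0.11 ± 0.09 (SE, adjusted p = 0.3166). Hsf2 (-0.25 ± 0.10, SE, adjusted p = 0.052) and Hsf4 (-0.33 ± 0.15, SE, adjusted p = 0.0731) missed the threshold as fitted, and Hsf5 was too low to be tested. Hsf2 passed in 6 alternative settings, among them donor as a fixed block (adjusted p = 0.0372). Hsf4 passed in 3, among them array weights (adjusted p = 0.0209). Hsf1 passed in 1, with reads scaled to library totals (-0.441, limma adjusted p = 0.000701). It turned to 0.059 with quantile normalization and to 0.141 with the glial covariate. Hsbp1, a small protein that binds and restrains HSF1, was higher in lumbar neurons (0.20 ± 0.06, SE, adjusted p = 0.0162), but at -0.14 it turned when reads were scaled to library totals. Among 12 HSF1 targets outside the 10 genes, 9 were called higher in sacral and 1, Cryab, higher in lumbar neurons. Over all genes tested, 30.3% were called towards sacral and 15.3% towards lumbar. Of the 10 genes, the HSF1 targets Hsp90aa1, Hspb1, Hsph1 and Hspa8 were also called towards sacral, and Hspe1 towards lumbar. Hspa1a, Hspa1b and Dnajb1 had positive values but were not called. Of 17 immediate early genes, which dissociation and activity also raise, 29.4% were called, beside 45.6% of all genes tested. Among the 17, 3 were higher in lumbar (among them Ier2, 0.75 ± 0.14, SE, adjusted p = 0.00019) and 2 in sacral neurons (among them Fosl2, -0.71 ± 0.13, SE, adjusted p = 0.000177).

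**Figure D5:**
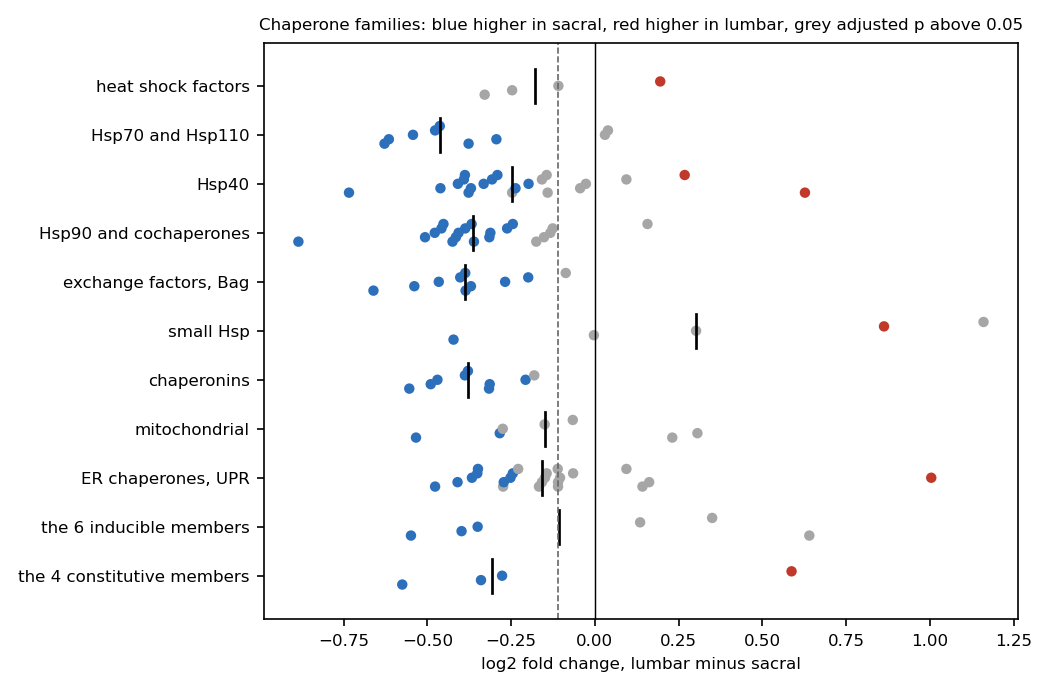
Log2 fold change (horizontal axis, lumbar minus sacral) of each chaperone gene tested, by family (vertical axis), with the family median as a black bar and the median of all genes as a dashed line at -0.11. Blue genes were called higher in sacral, red higher in lumbar and grey were not called. Hsp70, Hsp90, exchange factor and chaperonin families lie mostly to the left of the dashed line, and small heat shock genes lie on both sides of 0.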

How the data were processed

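RNA from sorted Trpv1 neurons was amplified (Ovation), made into Nextera libraries and sequenced. Per the labels and the methods, the authors aligned reads to mm9 with Subread, kept uniquely mapping reads, assigned them to Ensembl genes with featureCounts, and normalised with TMM (edgeR) and voom (limma). Deposited values are log2 RPKM, with the same median of 0.93 in every library and empty cells where a gene had none. Versions in the submitters' processing notes are Subread 1.18 and 1.20.6, edgeR 3.12.1 and limma 3.26.9.

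From these values, genes were kept with a mean above -1 log2 RPKM in 1 or more groups, taken over at least 3 values. Differential expression used limma 3.58.1 (statmod 1.5.0, R 4.3.3) over all 20 libraries, with 4 group means, donor as a random block (estimated correlation 0.17), variances moderated along a trend, and Benjamini-Hochberg adjustment over all genes tested, with calls at an adjusted p of at most 0.05. Fold changes are lumbar minus sacral. Libraries of the same donor share animal numbers in the labels, and their deviations from the group means had a mean r of 0.18 (lowest 0.04, highest 0.30), against -0.04 for different donors. Reads per gene were worked back from the values, and 98.07% of 430293 values came out whole within 0.01 of a read. The correlations and permutation tests used scipy 1.17.1 in Python 3.11.15. The limma fit and the TMM scaling were tested on simulated data.

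Alternatives were other filters, pseudocounts of 1 and 0.1 RPKM, quantile normalization, median centring, voom on worked-back reads, no trend, array weights, other donor models, each donor left out, each sex alone, an adjusted p of 0.01, and glial or immediate early means as covariates. Positions and symbols came from the annotation of the same build, and promoters from RefSeq (GRCm38.p6), whose coordinates are not interchangeable with mm9. The 10 genes and the lists were chosen with earlier results of these data known. Named genes outside the 10 are the heat shock factors, the called gene with the largest change in each direction of a list in at least 9 of 10 donors, and the 6 genes most like each class. The limma p-values set a difference between group means against the spread between these libraries, with the 10 donors as blocks. The permutation p-values concern the pairing of a donor's libraries. Read depth gives counting error only.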

Additional observations from a re-analysis of the deposited data

Results flagged for a closer look

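In 44 checks of single libraries against their group of 5, 1 stood apart. Hspa5 in the male lumbar library of donor M5 was at 6.148 log2 RPKM, below the next lowest library at 6.549, a gap of 0.718 of the whole range of the group. About 1 in 20 groups is expected to give such a gap by chance. Without donor M5 the call of Hspa5 was kept, as it was with each other donor left out.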

How the results depend on the processing

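Without the replicate block (donor), 7 of the 10 genes were called, 6 of them towards sacral, and 0 of 10 between sexes (lowest adjusted p = 0.6757 sacral, 0.4743 lumbar). With donor as a fixed block, 2 genes were called towards lumbar, as Hspa1b joined Hspe1 (0.64, adjusted p = 0.0133). The same 2 were called with quantile normalization, median centring, TMM voom, array weights and without donor F3. Quantile normalization left 3 genes called towards sacral. Other chaperone genes called towards lumbar numbered 8 with quantile normalization (38 towards sacral), 10 with median centring, 9 with TMM voom, 10 with array weights and 3 at an adjusted p of 0.01. They numbered 3 in females alone (18 towards sacral), and with each donor left out they ranged from 3 to 6. With a donor left out, Dnajb1 ranged from -0.013 (without F2) to 0.213. It turned to -0.196 and Hsbp1 to -0.138 when reads were scaled to totals, which moved the median of all genes from -0.11 to -0.43 (-0.01 with TMM). The share of calls towards sacral was then 87.2%, against 66.5% as reported, 56.8% with quantile normalization, 55.9% with median centring and 52.7% with TMM. Hsf1 turned to 0.059 with quantile normalization. With the glial covariate 1 of the 10 genes was called, 1 towards sacral and 0 towards lumbar, 0 other chaperone genes were called in either direction, and values turned to -1.362 (Hspa1a), -0.827 (Hspa1b), -0.565 (Dnajb1), 0.141 (Hsf1), 0.139 (Hsf2), -0.192 (Cryab), -0.054 (Serpinh1), -0.408 (Cldn5) and -0.087 (Hba-a1). Inducible minus constitutive was 0.62 with the narrower classes. The causes were not tested. The lowest counts in a library were 637 reads (Hspa1b), 713 (Hspe1) and 753 (Hspb1).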
